A study of Vitis vinifera with 26 samples.

Results

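Berries of grapevine (Vitis vinifera, cultivar 'Pinot Noir') that had not received the ethylene blocker 1-methylcyclopropene (1-MCP) were compared between 8 and 6 weeks after anthesis (WAA). The comparison used 8 of the 26 RNA sequencing libraries, all control libraries of these weeks by their source names, with 3 at 6 WAA and 5 at 8 WAA. Clusters on 8-year-old vines were enclosed for 24 h in a bag with a mock treatment and sampled 24 h later, and treated clusters received 5 ppm 1-MCP in the same way. The tissue is given as fruit, so skin, flesh and seeds are not separated, and fewer cells of a type cannot be told apart from less RNA per cell. Treated and control clusters came from the same plants per the series design, but no label links the plants of different weeks. The description label calls every library treated, so control status rests on source names and titles. Nothing in the labels gives the developmental stage beyond the week. The p-values measure the spread between libraries, and in the limma test of controls this spread included the 5 control libraries of 7 WAA.

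A grape berry grows in phases separated by a lag, and ripening starts at veraison, when berries soften, accumulate hexoses and, in black cultivars, colour their skin with anthocyanins. Abscisic acid and sugars promote this transition in grape, which is a non-climacteric fruit in which ethylene nevertheless acts. Expansins loosen cell walls during softening, and stilbene synthases, a large gene family in grape, make resveratrol from the same precursors that chalcone synthase uses for flavonoids.

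The deposited tables gave each assembled isoform a signal value, which in 86.7% to 88.7% of cases in the 8 libraries was a whole multiple of a step fixed within a library. Isoforms were summed per assembled locus and divided by that step, and the result is called a unit. After summing, between 98.1% and 98.5% of locus values were within 0.01 of a whole number, and 65.1% to 68.0% of the loci detected (at least 0.5 units) held exactly 1 unit. A unit is therefore close to a record of presence and is not a read count. The read depth is unknown, and a value of 0 is written as listed at 0. No unit was recorded for 11402 of the 33229 loci in any of the 26 libraries. Libraries of 1 week correlated across loci (log2 scale) at 0.753 to 0.791 at 6 WAA and at 0.760 to 0.816 at 8 WAA, against 0.715 to 0.768 between the weeks, so these ranges overlapped.

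Fewer loci were recorded at 8 WAA, but the library totals did not pass the test. The total was 22099, 21910 and 21993 units in the 6 WAA libraries and 20368, 20866, 22076, 20976 and 20983 units at 8 WAA. Replicate 3 of 8 WAA lay within the 6 WAA range and the other 4 libraries lay below it. The means were 22001 ± 94.7 (SD, n = 3) and 21054 ± 625 (SD, n = 5), a difference of -4.30% (exact two-sided permutation test, p = 0.107, adjusted over 3 measures 0.161). The number of detected loci was 14880, 14532 and 14715 at 6 WAA and 13912, 14139, 14542, 14093 and 14036 at 8 WAA, where only replicate 3 exceeded the lowest 6 WAA library. This was a difference of -3.84% (exact p = 0.0714, adjusted p = 0.161), and the smallest p that 3 against 5 libraries allow is 0.0357. Units per detected locus were 1.495 and 1.487 (exact p = 0.679).

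**Figure D1:**
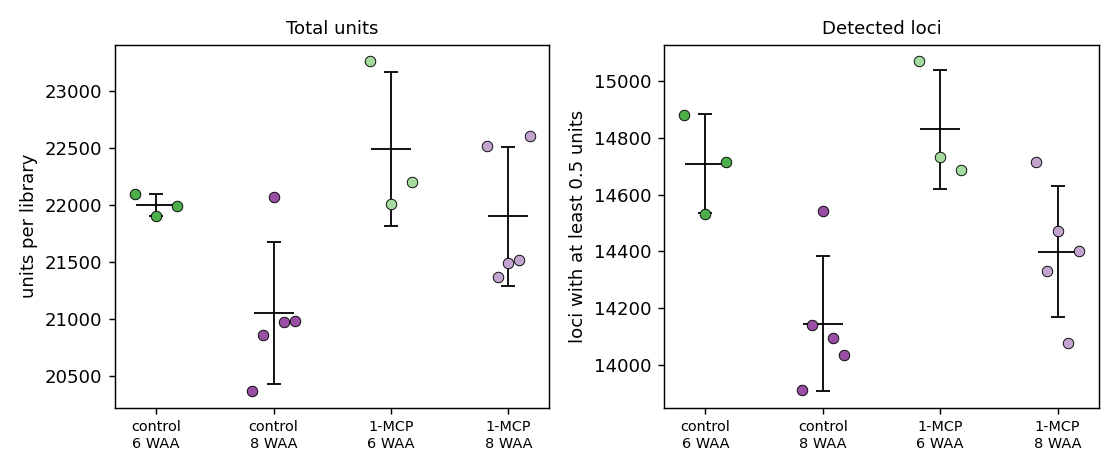
Total units (left) and number of detected loci (right) at 6 and 8 WAA in clusters with and without 1-MCP, shown as a point per library, a line at the group mean and whiskers of 1 SD; the vertical axes do not start at 0. Of the control libraries at 8 WAA, replicate 3 with 22076 units lies among those of 6 WAA and the others lie lower.

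At single loci, 172 fell and 28 rose from 6 to 8 WAA, so that 86% of the changes were decreases. The 200 loci were 1.17% of the 17135 tested (limma on log2(units + 1), Benjamini-Hochberg adjusted p below 0.05), with 1% called lower and 0.163% called higher. In all tested loci the direction was nearly balanced, with 34.7% higher and 40.2% lower by more than 0.05 and a median difference of 0. In 170 of the 172 fallers and in all 28 risers the libraries of the weeks did not overlap, which held for 1.83% (lower) and 0.508% (higher) of all tested loci, and most fallers were listed at 0 in all libraries of 8 WAA. Of the 172, 69 went from 1 unit in all 3 libraries of 6 WAA to 0 in all 5 libraries of 8 WAA, and 73 held at least 2 units in 1 or more 6 WAA libraries before being listed at 0 in all 5. Another 17 were still detected in all 5 libraries of 8 WAA, of which 10 went from 2 units to 1. Of the 28 risers, 16 went from 0 to 1 unit in every library, 9 from 0 to at least 2 units in some libraries and 3 from 1 unit to 2.

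The size of this list depended on the libraries. Without any 1 of the 8 libraries, 89 to 134 loci were called, 69.4% to 86.6% of them lower, and only 69 to 96 of these were among the 200. The fit with only the 6 and 8 WAA libraries called 331, of which 187 were among the 200. Of the 200, 95 shared the adjusted p of 0.0438 just inside the threshold, and 38 had a residual SD below 0.05, so that their p-values rest on values that hardly vary.

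Most fallers were still detected a week later, at 7 WAA. The 172 loci were by their choice detected in all 6 WAA control libraries. In the 5 control libraries of 7 WAA, 57.6% to 80.2% of them were detected, against 82.6% to 85.5% of all tested loci. These libraries entered the choice through the filter and the spread, so the shares are not independent of it. Only 5 of the 172 were detected in 2 and 7 in 3 of the 5 libraries. At 8 WAA the share was 11.0% in 4 libraries and 15.7% in replicate 1, where 27 of the loci were detected against 19 in each of the others. The 28 risers were detected at 10.7% in every 6 WAA library, at 42.9% to 82.1% at 7 WAA and at 100% at 8 WAA.

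**Figure D2:**
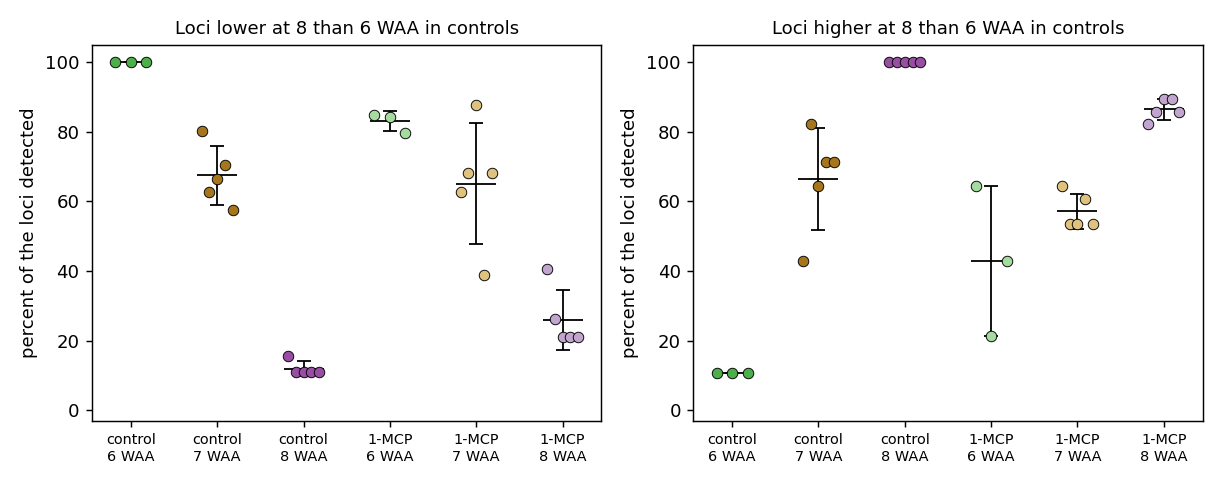
Percent of the 172 loci called lower and of the 28 called higher that were detected in each of the 26 libraries, by week and treatment, with lines at the group means and whiskers of 1 SD. The shares at 6 and 8 WAA in controls follow from the choice of the loci, those at 7 WAA follow from it in part, and the treated libraries had no part in it.

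Among the loci that fell furthest, 4 with 0 in every control library of 8 WAA kept their call under every setting in which they were tested. The first, VIT_208s0007g05500 on chromosome 8 from 19431272 to 19441077, held 4, 2 and 3 units at 6 WAA, 4, 4, 3, 4 and 3 units at 7 WAA and 0 in all 5 libraries at 8 WAA. It was thus in the same range at 7 as at 6 WAA and listed at 0 in every control library of 8 WAA, a difference of -1.97 ± 0.14 (SE) in log2(units + 1) (limma, adjusted p = 1.84e-05). A locus on chromosome 12 from 21716470 to 21725839 had the same course, with 3, 3 and 2 units at 6 WAA, 2, 3, 3, 2 and 2 at 7 WAA and 0 throughout at 8 WAA (-1.86 ± 0.13, limma adjusted p = 1.15e-05).

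A second course was an earlier loss. The locus on chromosome 12 from 22584211 to 22592352 held 2, 2 and 3 units at 6 WAA and was listed at 0 in all 10 control libraries of 7 and 8 WAA (-1.72 ± 0.08, limma adjusted p = 1.43e-07). It passed the filter only through the 3 libraries of 6 WAA, so it was tested in 17 of the 21 settings. The stricter filter and the fits without a library of 6 WAA did not test it, so its kept call says nothing about those settings. On chromosome 13 from 2291548 to 2317974, the values were 3, 4.17 and 3 units at 6 WAA, 0, 1, 1, 1 and 0 at 7 WAA and 0 in all libraries at 8 WAA (-2.12 ± 0.26, limma adjusted p = 0.00185). VIT_208s0007g02280 on chromosome 8 from 16323251 to 16328822 had 3, 3 and 2 units at 6 WAA, 2, 0, 0, 0 and 0 at 7 WAA and 0 at 8 WAA. Its difference was -1.86 ± 0.33 (limma, adjusted p = 0.0311), and without any 1 of the 8 libraries the adjusted p was 0.0678 to 0.154. This locus passed the filter only with the help of the 6 WAA libraries, where it was high, and the stricter filter did not test it. The weeks did not overlap at these loci, since each 8 WAA library was at 0. The locus on chromosome 7 from 6141508 to 6144527 declined in its weekly means, with 1, 4 and 3 units at 6 WAA, 1, 1, 2, 1 and 1 at 7 WAA and 0 at 8 WAA (-1.77 ± 0.25, limma adjusted p = 0.00621). Its libraries of 6 and 7 WAA overlapped.

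The other 4 of the 10 largest decreases each joined 2 to 5 reference identifiers in 1 locus, and the chromosome 13 locus above also joined 2. On chromosome 2 from 2029174 to 2040913, a locus with 12 isoforms and 3 reference identifiers held 7, 3 and 9 units at 6 WAA, 9, 2, 4, 7 and 1 at 7 WAA and 0 at 8 WAA (-2.77 ± 0.49, limma adjusted p = 0.0302). Its 7 WAA libraries spread over the whole range of 6 WAA and below it. Its call was lost without any library other than replicate 2 of 6 WAA (limma adjusted p 0.0696 to 0.137). A locus with 27 isoforms and 4 reference identifiers on sequence assigned to chromosome 18 without a place, from 3944610 to 4319279, held 9, 10 and 5 units at 6 WAA and 4, 1, 0, 0 and 0 at 8 WAA (-2.46 ± 0.49, limma adjusted p = 0.0438). At 7 WAA it held 9, 10, 7, 8 and 8 units. Its call was lost without any library other than replicate 1 of 8 WAA (adjusted p 0.0918 to 0.176), and it was also lost in the fit of the 6 and 8 WAA libraries (0.257), with a pseudocount of 0.1 (0.124) or 0.5 (0.0657), without the filter (0.0509) and with the stricter filter (0.0554).

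On chromosome 9 from 21929403 to 22119086, the values were 3, 5 and 6 units at 6 WAA and 2, 0, 0, 0 and 0 at 8 WAA (-2.15 ± 0.36, limma adjusted p = 0.0218), and at 7 WAA they lay between 2 and 3. Its call was lost in the fit of only the 6 and 8 WAA libraries (0.106) and without any library other than replicate 1 of either week (0.0605 to 0.113). A locus on unplaced sequence from 12453245 to 12497236 had 2, 5 and 3 units at 6 WAA, 0 or 1 at 7 WAA and 0, 0, 1, 0 and 0 at 8 WAA (-1.86 ± 0.36, limma adjusted p = 0.0438). Its call was lost without any library other than replicate 3 of 8 WAA (0.0559 to 0.155) in the fit of only the 6 and 8 WAA libraries (0.0502), with a pseudocount of 0.1 (0.138) or 0.5 (0.0576) and with no filter or the stricter one (0.0509 and 0.0554). All 4 loci were lower in every 8 WAA library than in any 6 WAA library.

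Of the 10 loci that rose furthest, all were listed at 0 in every 6 WAA library, and they differed in what the 7 WAA libraries held. VIT_204s0044g00700 on chromosome 4 from 21749923 to 21754454 held 1, 2, 2, 2 and 1 units at 7 WAA and 2, 3, 1, 2 and 2 at 8 WAA, a difference between 8 and 6 WAA of 1.55 ± 0.22 (limma, adjusted p = 0.00583). The locus was therefore already detected in all 5 libraries of 7 WAA. VIT_204s0008g03920 on chromosome 4 from 3246966 to 3250642 was also present by then, with 1, 4, 2, 2 and 3 units at 7 WAA and 2, 2, 3, 2 and 1 at 8 WAA (1.55 ± 0.28, limma adjusted p = 0.0329). This call was lost in the fit of all 26 libraries (0.0725) and without any of the 8 libraries other than replicate 5 of 8 WAA (0.0737 to 0.139). A locus on unplaced sequence from 9116201 to 9171712 held 1, 4, 1, 3 and 4 units at 7 WAA and 3, 2, 3, 3 and 3 at 8 WAA (1.92 ± 0.32, limma adjusted p = 0.0199). That call was lost in the fit of all 26 libraries (0.0609) and without any library other than replicate 2 of 8 WAA (0.0512 to 0.103).

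A further 3 risers were also present in all 7 WAA libraries. On chromosome 8 from 11895539 to 11899239, the values were 2, 2, 2, 1 and 2 units at 7 WAA and 1, 2, 1, 1 and 1 at 8 WAA (1.12 ± 0.17, limma adjusted p = 0.00972), and the call was lost without replicate 2 of 6 WAA (0.0554) and in the fit of all 26 libraries (0.0595). On chromosome 4 from 19138402 to 19142192, they were 2, 1, 2, 2 and 1 units at 7 WAA and 1, 2, 1, 1 and 1 at 8 WAA (1.12 ± 0.19, limma adjusted p = 0.0211), and the call was lost without any 1 of the 3 libraries of 6 WAA (0.0750 to 0.108). On chromosome 10 from 2640520 to 2893885, each library of 7 and 8 WAA held exactly 1 unit and each of 6 WAA 0 (1.00 ± 0.01), so that the groups showed no spread and the adjusted p of 1.87e-16 measures none.

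The remaining 4 risers appeared late. They passed the filter only with the help of the 8 WAA libraries, where they were high, so being tested at all depended on those libraries. On chromosome 4 from 20382105 to 20394902, 1 library of 7 WAA held 2 units and the other 4 were at 0, while all 5 libraries of 8 WAA held 2 units (1.58 ± 0.32). On chromosome 16 from 19697154 to 19699942, the values were 0, 1, 0, 1 and 0 units at 7 WAA and 2, 2, 1, 2 and 2 at 8 WAA (1.47 ± 0.27). A locus on chromosome 4 from 21234507 to 21250340 and one on chromosome 1 from 5806492 to 5811640 were each at 0 in 4 of the 5 libraries of 7 WAA, and reached 1, 3, 2, 1 and 2 units and 1, 2, 1, 1 and 2 units at 8 WAA (1.43 ± 0.28 and 1.23 ± 0.25). All 4 had a limma adjusted p of 0.0438, and each call was lost without any 1 of the 8 libraries (0.0514 to 0.154) and without the filter (0.0509), except that the chromosome 16 locus kept its call without replicate 3 of 8 WAA. The chromosome 16 call was also lost with a pseudocount of 0.1 (0.0538), and the other 3 with the stricter filter (0.0554).

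**Figure D3:**
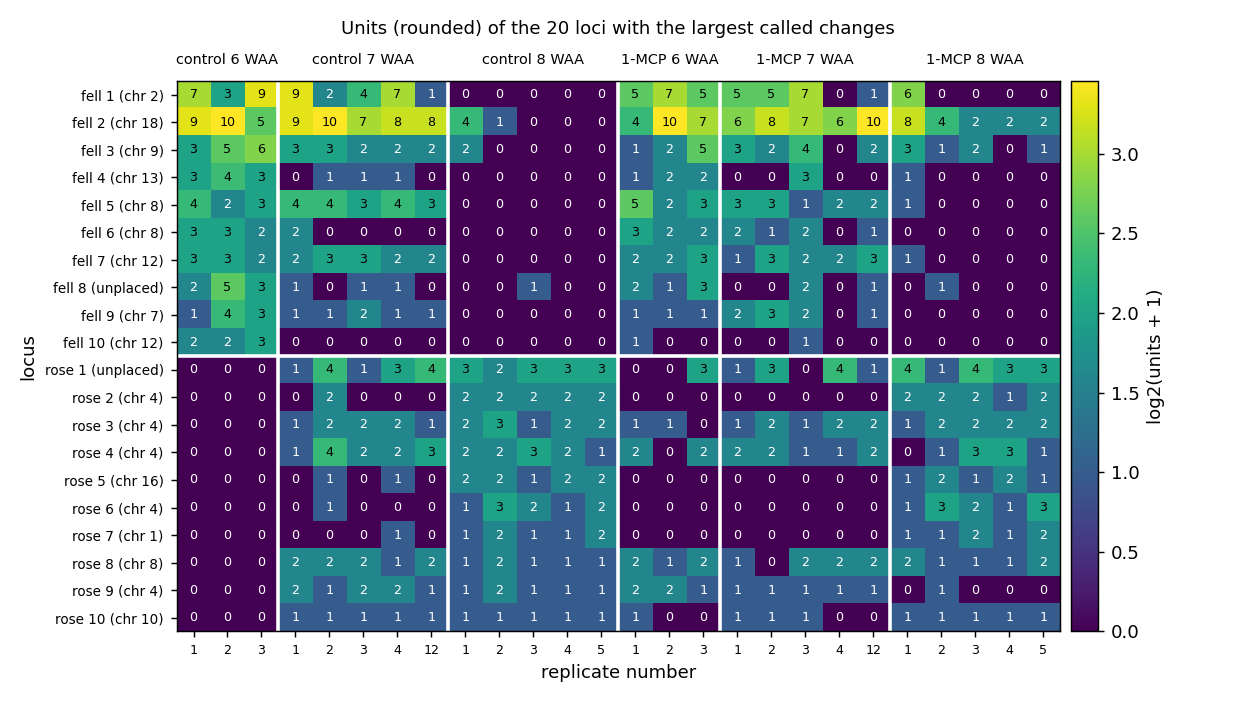
Units in all 26 libraries (columns, by week and treatment) at the 10 loci that rose and the 10 that fell most between 6 and 8 WAA in controls (rows), with the rounded units printed in each cell and brighter colours for a higher log2(units + 1). In controls the risers are listed at 0 in all 3 libraries of 6 WAA, and 7 of the 10 fallers in all 5 libraries of 8 WAA.

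Loci were also counted by detection alone, with no threshold on a p-value. Among all loci, 238 were detected in every control library of 6 WAA and in none of 8 WAA, and 63 in every library of 8 WAA and in none of 6 WAA. The tested ones were 1.38% and 0.368% of all tested loci. At 7 WAA, 63 of the 238 were still detected in all 5 libraries and 14 in none, and 9 of the 63 that appeared were already detected in all 5 and 2 in none. Whether such a locus passed the test went with its 7 WAA values, since these set its spread in the fit: of the 76 disappearing loci detected in 2 or 3 of the 5 libraries of 7 WAA, 11 were called, against 131 of the other 162.

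Clusters treated with 1-MCP give separate libraries of the same weeks. Of the 172 fallers, 151 (87.8%) had a lower mean in treated clusters at 8 than at 6 WAA, 10 did not differ and 11 were higher, where 38.2% of all tested loci were lower and 37.5% higher. Of the 28 risers, 25 (89.3%) were higher and 3 lower. The differences were smaller for the risers, with a median of 0.54 in treated against 1.00 in control clusters, and for the fallers the medians were -0.96 and -1.07. Choosing loci by the control values alone favours larger differences in the controls. Tested on their own, the 13 treated libraries gave 78 called loci (0.455% of 17146), 26 of them higher (0.152%) and 52 lower (0.303%). Of these, 16 were among the 200, all in the same direction, which is 8% of the control list and 20.5% of the treated list. Of the 238 loci that disappeared completely in controls, 104 did so in treated clusters, where 238 did in all, and of the 63 that appeared completely, 16 did so among 70. No locus switched completely in opposite directions.

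Treated libraries also showed where single loci departed. In all treated libraries of 6 WAA, 79.7% to 84.9% of the fallers were detected, and at 8 WAA 20.9% to 26.2% in 4 libraries and 40.7% in replicate 1, against 83.0% to 84.5% and 80.1% to 83.3% of all tested loci. Of the risers, 64.3%, 21.4% and 42.9% were already detected in the treated libraries of 6 WAA, against 10.7% in the controls, and 82.1% to 89.3% at 8 WAA. VIT_208s0007g05500 held 5, 2 and 3 units in treated clusters at 6 WAA and 1, 0, 0, 0 and 0 at 8 WAA, the same course as in controls. The late riser on chromosome 4 at 20382105 was at 0 in all treated libraries of 6 and 7 WAA and held 2, 2, 2, 1 and 2 units at 8 WAA. The riser on chromosome 4 at 19138402 went the other way in treated clusters, with 2, 2 and 1 units at 6 WAA and 0, 1, 0, 0 and 0 at 8 WAA. The difference between its treated and control changes was -2.31 ± 0.30 (limma, all 26 libraries, adjusted p = 0.000596), and this test, which called 7 of 18588 loci, was added after the values had been seen.

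The changed loci were spread over the genome. The share of tested loci that was called ranged from 0.597% on chromosome 13 to 1.91% on chromosome 17. Within 50 kb of each other lay 10 pairs of called loci, of which 8 had both members lower and 2 had members of opposite direction. Since 86% of all called loci were lower, this count is not read as agreement between neighbours. Some of the 8 pairs also shared members. The densest stretch, chosen after the values were seen, was on chromosome 10 from 5527662 to 5617971, where 4 of 5 tested loci fell. These 4 passed the filter only with the help of the 6 WAA libraries, where they were high. The count of 4 of 5 is therefore not read as a result about the stretch. Their values at 6 WAA were 1, 2 and 1 units in the first, 1, 1 and 1 in the second, 1, 1 and 2 in the third and 2, 1 and 2 in the last, and all 4 were at 0 in every library of 8 WAA. The last, from 5615307 to 5617971, was also at 0 in all 7 WAA controls (-1.39 ± 0.11, limma adjusted p = 3.65e-05), while the other 3 had a limma adjusted p of 0.0438. The fifth tested locus, from 5531470 to 5533174, was at 0 in all 6 WAA libraries and at 1 unit in 1 library of 8 WAA, and 3 further loci of the stretch were at 0 in all 26 libraries.

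The changed loci had fewer isoforms than the tested ones. The median number of isoforms was 2 among fallers and 1.5 among risers against 3 among all tested loci, and loci with a single isoform were 38.4%, 50% and 27.0%. The longest isoform had a median of 1901.5 bases among fallers, 1491.5 among risers and 2212 among all tested. Loci without a reference gene were 9.88% (17) of fallers and 14.3% (4) of risers against 5.35% of all tested. Loci consisting only of transcripts antisense to a reference gene were 4.07% (7), 14.3% (4) and 3.65%. Whether strand was kept is not stated, so reads of a gene and of an antisense partner cannot be told apart. Across loci, units correlated with the number of isoforms detected at 0.914 to 0.929 within a library (a description, since loci of a library share its preparation), and the part of isoform number in these differences was not tested.

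Known ripening genes were looked up through lists of identifiers recalled from the grapevine literature, whose membership could not be checked. Of their loci 1 passed the test, where 1.17% of all 17135 tested loci did, so this call is not read as a result about the lists. The called locus was the faller with 27 isoforms on chromosome 18 sequence, in the list of a sesquiterpene synthase region. In that region, whose enzymes make volatile terpenes in grape, 20 of 59 tested loci were higher and 27 lower, with a median of 0. The region's total was 80, 79 and 78 units at 6 WAA and 73, 74, 71, 76 and 62 at 8 WAA. Without the called locus the totals were 71, 69 and 73 against 69, 73, 71, 76 and 62 units, so that the weeks overlapped. In treated clusters they overlapped with that locus included, at 93, 91 and 80 against 84, 69, 70, 73 and 75 units. Without it the treated totals were 89, 81 and 73 against 76, 65, 68, 71 and 73 units, which also overlapped.

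The region of chromosome 16 that holds most stilbene synthases had no called locus. Of all its 42 loci, 30 were higher at 8 WAA, 3 lower and 9 within 0.05, where 21.4% of all 33229 loci were higher. The filter kept 29, and 17 of these passed it only with the help of the 8 WAA libraries, of which 16 were higher, so no count or median over the 29 is read here. Its total was 2, 12 and 16 units at 6 WAA, 1, 31, 0, 7 and 16 at 7 WAA and 21, 29, 23, 24 and 38 at 8 WAA. The 8 WAA libraries all lay above those of 6 WAA, replicate 1 of 6 WAA stood far below the other 2, and 7 WAA spanned nearly the whole range. The locus from 16618990 to 16624707, picked outside the rule for named loci, was at 0 in all 3 libraries of 6 WAA and at 2 units in all 5 of 8 WAA. It was not called (limma adjusted p = 0.0551). In treated clusters the same region held 19, 9 and 24 units at 6 WAA and 38, 36, 18, 28 and 25 at 8 WAA, where the weeks overlapped. Near-identical copies fill this region, and reads could be split between them. Stilbene synthase loci of a second region, on chromosome 10, numbered 12, none of which passed the filter. Of the 2 listed regulators of stilbene synthesis 1 was higher. Of all 24 phenylalanine ammonia-lyase loci, the entry to the phenylpropanoid pathway, 7 were higher, 2 lower and 15 within 0.05. The shares over all 33229 loci were 21.4% higher and 24.3% lower. The filter kept 8 of the 24, of which 5 were higher, 1 of them tested only with the help of the 8 WAA libraries. It kept none of the lower ones.

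**Figure D4:**
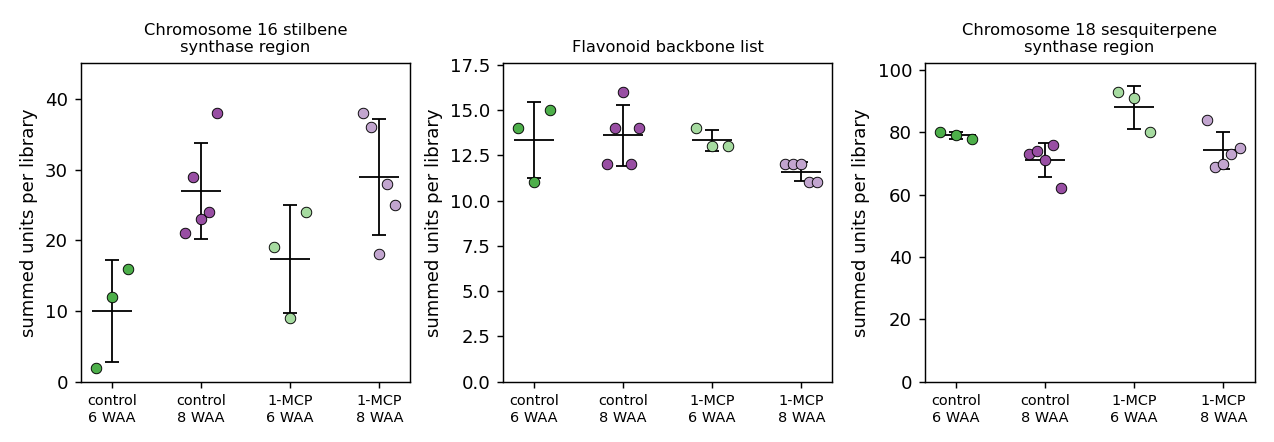
Summed units of the stilbene synthase region of chromosome 16, the flavonoid backbone list and the sesquiterpene synthase region of chromosome 18 at 6 and 8 WAA in clusters with and without 1-MCP, shown as a point per library, a line at the group mean and whiskers of 1 SD. For the stilbene synthase region of chromosome 16, all 5 control libraries of 8 WAA (21 to 38 units) lie above the 3 of 6 WAA (2 to 16 units).

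Colour pathway loci were little informative on this scale. The flavonoid backbone list, the shared route to anthocyanins, tannins and flavonols, had 11 tested loci, of which 3 were higher, 2 lower and 6 within 0.05. The 2 lower ones consisted only of transcripts antisense to a reference gene. Its total was 14, 11 and 15 units at 6 WAA and 12, 14, 16, 12 and 14 at 8 WAA. Of the 9 loci of the anthocyanin list, which holds the last steps and their regulators, 8 were listed at 0 in all 26 libraries, and the ninth, which joins 4 reference identifiers and 39 isoforms, held 6, 5 and 10 units at 6 WAA and 3, 5, 7, 6 and 8 at 8 WAA. The region of the B-ring hydroxylases, which set the hue of anthocyanins, had 30 of 34 loci at 0 in all libraries. Of the 34, 4 (11.8%) were higher, against 21.4% of all 33229 loci. The filter kept 3 of these, 1 of them only with the help of the 8 WAA libraries, so no count over the 3 is read here. In the flavonol list 1 of 2 tested loci was higher and 1 lower, and in the proanthocyanidin list, of tannins of skin and seed, 1 of 4 was lower and 3 were within 0.05.

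Among regulators and hormone genes, 3 of 4 tested loci of the MADS list, transcription factors with roles in fruit development, were higher, with totals of 3, 3 and 2 units at 6 WAA and 5, 4, 5, 5 and 5 at 8 WAA. The totals of the weeks did not overlap, but in treated clusters they were 5, 5 and 4 units at 6 WAA and 4, 5, 2, 5 and 5 at 8 WAA. All 4 tested loci of the abscisic acid list were lower, with totals of 4, 5 and 6 units at 6 WAA and 1, 5, 4, 6 and 4 at 8 WAA that overlapped. The 3 untested loci of the list together held 0 units at 6 WAA and 2, 0, 1, 0 and 2 at 8 WAA, and the mean of the whole list was 5 units in both weeks. In the lists of NAC transcription factors 1 of 4 was higher, of ACC oxidases, which make ethylene, 2 of 4, and of GH3 enzymes, which conjugate auxin, 1 of 2, with 1 lower in the last. In an ethylene response factor region of chromosome 16, 5 of 12 were higher and 6 lower.

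Genes of softening and sugar import were present in every week. All 4 aquaporin loci, water channels, held 1 unit in each of the 26 libraries. The 4 tested loci of hexose transport and invertase were all within 0.05, with totals of 4, 4 and 5 units at 6 WAA and 5, 3, 5, 4 and 6 at 8 WAA. Of 6 expansin loci 1 was higher and 4 lower, with totals of 6, 8 and 6 units at 6 WAA and 5, 6, 3, 7 and 8 at 8 WAA. Among berry defence proteins, the thaumatin-like region had 5 of 8 tested loci higher and 3 lower, and the PR10 region 3 of 9 higher and 4 lower. In all these lists, higher and lower mean a difference in log2(units + 1) above 0.05, and only the chromosome 18 locus passed the test. Of all 17135 tested loci, 34.7% were higher and 40.2% lower. Of the 1052 loci that passed the filter only with the help of the 8 WAA libraries, 772 were higher. Loci that passed only with the help of the 6 WAA libraries were not counted. Of all 33229 loci 7114 were higher and 8088 lower, and of the tested ones 5948 and 6882. Lower loci were thus the larger number before and after the filter.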

How the data were processed

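Berry RNA was sequenced by Illumina, per the labels' protocols. For 90542 assembled isoforms the authors deposited a signal value per library, together with isoform lengths in bases, loci, reference identifiers and coordinates. The submitters' processing notes name Bowtie2 2.2.3. The software behind the values is not given in the sources used here, nor is the genome build or annotation. Coordinates are printed as deposited. Values were summed per locus and divided by the commonest value above 0.5 of the library. Loci with at least 1 unit in at least 3 of the 13 control libraries were fitted with limma 3.58.1 (R 4.3.3) on log2(units + 1) with 1 mean per week, contrast 8 minus 6 WAA, Benjamini-Hochberg threshold 0.05. Differences on this scale understate changes of low loci. The values were neither counts nor FPKM, so no count test was run. Library measures were compared by exact permutation (SciPy 1.17.1). The script was tested on simulated data.

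The rule for named loci took the 10 largest called differences in each direction and every called locus of a list. Of 31919 reference identifiers, 0 were found in the RefSeq table (assembly GCF_030704535.1), so names and sequences are not reported; 4 identifiers, of the largest changes with a single identifier, were chosen after their values were seen, and the other loci are given by position. The lists, some of whole identifier ranges, may hold other genes. Comparisons, members and lists were chosen with earlier results of these data known. Alternatives covered the libraries in the fit, pseudocount, filter, step, scaling, moderation, pairing, isoform level and each library left out. No pairing was used, because no label links the plants of different weeks. The 3 same-numbered pairs of 6 and 8 WAA are too few to exclude one, and a fit with replicate blocks called 96 loci.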

Additional observations from a re-analysis of the deposited data

Results flagged for a closer look

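In 10 of 46 groups of 5 libraries checked, 1 library stood apart from the others by Dixon's criterion, which chance meets in about 1 in 20 groups; since most values are 0, 1 or 2 units, a single unit is enough to set a library apart. Among control libraries of 8 WAA, replicate 1 held 4 units at the chromosome 18 locus of 27 isoforms, where the others held 0 or 1, and 2 units at the chromosome 9 locus at 21929403, where the others held 0. Replicate 2 held 2 units against 3 at the unplaced locus at 9116201, and 2 against 1 at both the chromosome 8 locus at 11895539 and the chromosome 4 locus at 19138402. Replicate 3 held 1 unit against 2 at the chromosome 16 locus at 19697154, and 1 against 0 at the unplaced locus at 12453245. In list totals, replicate 1 held 5 units of the NAC list against 4, and replicate 2 held 4 units of the MADS list against 5. Of the 172 fallers, 70 were detected in replicate 1 of the treated clusters of 8 WAA against 36 to 45 in the other 4 libraries.

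The chromosome 4 locus at 19138402 moved in opposite directions, with a difference between the treated and the control change of -2.31 on the log2(units + 1) scale (limma adjusted p = 0.000596, test added after seeing the data). Of the 7 loci this test called, 6 were among the 200 that changed in controls, which were chosen on the same control libraries.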

How the results depend on the processing

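Against 200 called loci (28 higher, 172 lower), the fit of only the 6 and 8 WAA libraries called 331 (70 higher, 261 lower), of which 187 were among the 200; all 26 libraries gave 218 with 43 higher; no filter gave 102 (12 and 90); at least 1 unit in 5 libraries gave 86 (13 and 73); isoform values gave 90 isoforms (12 and 78). Same-numbered libraries correlated at -0.0130 to 0.0979 (3 pairs) and differently numbered ones at -0.0743 to 0.0503 (12 pairs). Of 3 libraries of 6 WAA, 1 correlated best with its own number. So few pairs cannot exclude a pairing, and the numbers were not taken as pairs because no label links the weeks. With a replicate block 96 were called (18 and 78), and 15 of the 20 named loci lost their call. Of these, 2 lost it in this setting alone, VIT_204s0044g00700 and the chromosome 7 locus at 6141508 (limma adjusted p 0.157 and 0.163). Leaving out 1 library gave 89 to 134 called, 13 to 41 higher and 75 to 97 lower, and 72 to 147 loci switched on and 251 to 363 switched off. Pseudocounts, the undivided values, rounding, scaling to a common total, quantile normalisation, moderation with trend and a residual SD of at least 0.05 gave 180 to 205 called. Scaling to a common total moved the median of all loci by 0.032. Units per detected locus changed sign with undivided values (0.00732, exact p = 0.393). Of the 20 named loci, 5 were called in every setting where they were tested, 293 of 414 tests were called and none reversed. With unknown depth, absence cannot be told from low detection.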
